A study of Caenorhabditis elegans with 2 samples.

Results

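The homeobox genes encode transcription factors that bind DNA through a homeodomain, and in Caenorhabditis elegans they include the Hox genes that assign fates along the anterior to posterior axis. Here the set was every protein-coding gene of the Ensembl WBcel235 annotation named ceh- with a number (63 genes), plus lin-39, mab-5, egl-5, php-3, nob-1, pal-1, vab-7 and unc-62. That made 71 genes out of 19973 on the nuclear chromosomes. The measurements were peak lists of chromatin immunoprecipitation and sequencing (ChIP-seq) for ZTF-16, a zinc-finger protein related to Hunchback and Ikaros, made with an antibody against GFP. All animals were of strain OP558, genotype unc-119(tm4063) III; wgIs558, in which the integrated transgene wgIs558 carries ztf-16 fused at its 3' end to sequence for GFP and FLAG tags. Mixed-sex late embryos were collected whole, 5 hours after synchronisation by egg bleaching, in 2 biological replicates that form the only group, so the data hold no contrast between conditions. Where the fusion protein was made in the embryo, and how it compares in amount with the native protein, is unknown here, and peak lists hold no expression values with which to check the stage or tissue.

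Hox proteins specify regions of the body, and they often bind DNA together with cofactors of the TALE class, the Pbx-like and Meis-like homeodomain proteins. In C. elegans the Hox genes lie in 3 separated pairs. Hunchback-type zinc-finger proteins are known as regulators of Hox genes in Drosophila, where Hunchback limits their expression in the early embryo.

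The promoter window of a gene ran from 1000 bp before its annotated 5' end to 200 bp past it, and the gene body from its annotated start to its end. A gene was counted when the summit of a peak fell inside. The lists, on assembly ce11, were the 822 peaks kept by the irreproducible discovery rate (IDR) procedure, a relaxed list of 14968 peaks from the pooled reads, and relaxed lists of 21235 and 18242 peaks for replicates 1 and 2. The relaxed lists were deposited as peaks and background together, so their weaker entries may be background. The signal value is the output of the authors' peak caller and was compared only within its list, and ranks run from 1 for the strongest peak. No read numbers are in the lists, so the depth is unknown. Wilson 95% intervals on shares cover only counting error, over genes or, for motif shares, over summits. No statistical test was run, because 1 group of 2 samples allows no comparison of conditions and neighbouring genes can share a summit.

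The strongest summits at these genes were 2 at genes of Hox cofactors, upstream of ceh-20 and in an intron of unc-62. The sequences at the strongest pooled summits of ceh-20, ceh-51, ceh-38 and ceh-27, and at those of pal-1 and of the Hox genes that had a pooled summit, are shown because the results turn on these sites. Each is 101 bases centred on the summit, from the RefSeq sequence of WBcel235, read 5' to 3' on the strand of the gene. Capitals mark every match, on either strand, to 6 short motifs: TAAT, the core of many homeodomain sites; TGATNNAT, a Pbx-Hox site; TGACAG, a Meis site; AAAAAA, as in Hunchback sites; GGGAA, the Ikaros core; and GAGAGA, which was added after sequences at the summits had been seen.
ceh-20, III:6979107-6979207, plus strand: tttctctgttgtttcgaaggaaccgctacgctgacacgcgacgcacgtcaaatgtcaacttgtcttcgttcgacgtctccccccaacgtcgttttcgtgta
ceh-51, V:18873648-18873748, plus strand: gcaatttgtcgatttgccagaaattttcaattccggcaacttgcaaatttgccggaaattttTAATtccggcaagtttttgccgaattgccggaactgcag
ceh-38, II:6951510-6951610, plus strand: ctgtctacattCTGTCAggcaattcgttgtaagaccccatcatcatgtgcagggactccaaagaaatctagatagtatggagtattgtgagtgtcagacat
ceh-27, V:11665003-11665103, minus strand: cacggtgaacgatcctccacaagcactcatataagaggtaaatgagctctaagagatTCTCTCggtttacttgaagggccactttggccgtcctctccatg
pal-1, III:4805563-4805663, minus strand: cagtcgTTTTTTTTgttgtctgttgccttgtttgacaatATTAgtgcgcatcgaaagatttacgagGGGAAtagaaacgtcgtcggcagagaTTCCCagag
nob-1, III:12084763-12084863, minus strand: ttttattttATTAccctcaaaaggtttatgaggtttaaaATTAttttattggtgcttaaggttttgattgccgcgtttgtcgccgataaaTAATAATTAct
mab-5, III:7784392-7784492, minus strand: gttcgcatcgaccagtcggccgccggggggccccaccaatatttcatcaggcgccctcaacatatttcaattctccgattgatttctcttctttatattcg
php-3, III:12076776-12076876, minus strand: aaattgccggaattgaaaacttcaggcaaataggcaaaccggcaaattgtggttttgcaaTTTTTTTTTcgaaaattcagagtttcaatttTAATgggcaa
ceh-13, III:7555825-7555925, plus strand: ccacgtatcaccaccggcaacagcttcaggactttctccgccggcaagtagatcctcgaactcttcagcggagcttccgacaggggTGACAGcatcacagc
The ceh-20 and mab-5 sequences held no match to any of the 6 motifs. The nob-1 sequence held 5 matches to TAAT.

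The IDR-thresholded list had no summit in the promoter window or gene body of any of the 71 genes. Among all protein-coding genes 3.29% had one in the window and 1.17% in the body, so the same shares would give 2.34 and 0.832 of the 71 genes. A count of 0 of 71 still allows a share of up to 4.23%, which is above both background shares, so a deficit could not be told from no deficit. The nearest IDR-thresholded summit lay a median of 40.3 kb from the 5' ends of the set and 48.6 kb from those of all genes. For IDR-thresholded summits within 5 kb of the 5' end no interval was worked out, and no deficit is read from the count. Such a summit was found for 2 genes (2.82%), compared with 9.17% of all genes. Those were ceh-39, a Onecut gene, with a summit 2650 bp upstream that lay beside a tRNA gene, and ceh-5, a Vax-like gene, with a summit 4731 bp upstream.

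**Figure D1:**
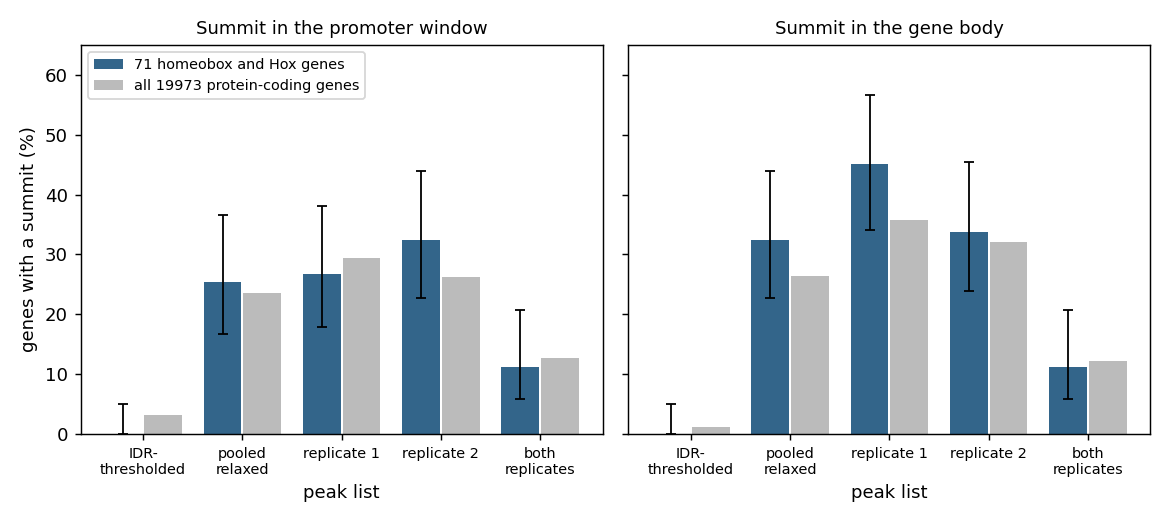
Share of genes (vertical axis, %) with a summit in the promoter window (left) or gene body (right) in each peak list, for the 71 homeobox and Hox genes (blue, with Wilson 95% intervals) and all protein-coding genes (grey). The grey share lies inside the interval of the blue bar in all lists; at IDR-thresholded peaks the blue count is 0.

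In the relaxed lists the share of the set with a summit in the window was close to the background. Pooled summits lay in the promoter windows of 18 genes, 25.4% (interval 16.7 to 36.6), compared with 23.5% of all genes. Replicate 1 had summits in the windows of 19 genes (26.8%, background 29.4%) and replicate 2 in those of 23 (32.4%, background 26.2%). A summit of replicate 1 with one of replicate 2 within 200 bp, both inside the window, was found for 8 genes (11.3%, background 12.8%). The intervals of all 4 shares include the background. The strongest pooled window summit of each gene had a median rank of 7231.5 in the set, and 4961 over all genes with one. For bodies these medians were 8157 and 7072.5, and neither difference was tested.

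In the pooled and single-replicate lists gene bodies gave higher shares than windows, by little in replicate 2. For matched summits the share was 11.3% in both places. The genes of the set were longer than most. The body held a pooled summit in 23 genes (32.4%, interval 22.7 to 43.9, background 26.4%), a summit of replicate 1 in 32 (45.1%, background 35.8%) and of replicate 2 in 24 (33.8%, background 32%). Matched summits of both replicates lay in 8 bodies (11.3%, background 12.3%). The median length was 2944 bp in the set and 2027 bp over all genes, and 26 of the 71 belonged to the longest of 4 length classes of nearly equal size, where 56.6% had a pooled summit in the body. Applying the share of each length class to the lengths of the set gave 23.1 genes, next to the 23 counted. Per length the set had 13.3 summits per 100 kb of gene body and all genes 13.8. Without unc-62 the rate in the set was 10.9 per 100 kb.

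In all, 33 genes had a pooled summit in the window or body (46.5%, background 39.9%), and 51 had a summit in some list (71.8%, background 63.6%). The 33 genes carried 51 distinct pooled summits. Of these, 22 lay in introns, 12 between genes, 8 in exon sequence outside the annotated coding sequence, 6 in coding exons and 3 inside another gene. The member's own 5' end was the nearest for 40 summits. A single summit, upstream of the Empty spiracles homologue ceh-2, lay within 200 bp of a small non-coding gene, a tRNA gene. Summits of both replicates lay within 200 bp of 23 of the 51 (45.1%), against 43.3% of the whole pooled list. Replicate 1 alone matched 15, replicate 2 alone matched 11, and neither matched those at ceh-19 and ceh-87.

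**Figure D2:**
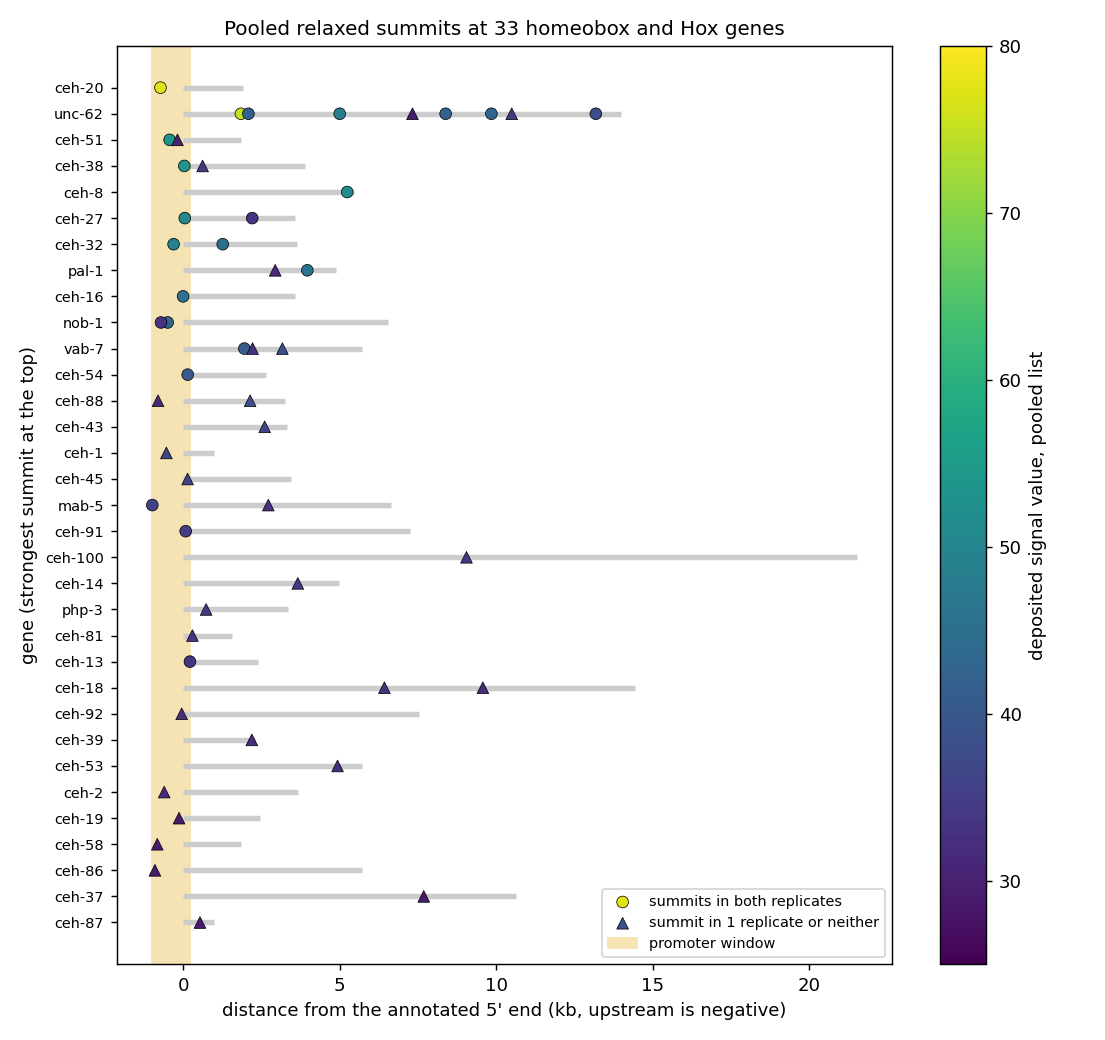
Pooled relaxed summits of the 33 genes that had one, by distance from the annotated 5' end (horizontal axis, kb), with the gene body in grey, the promoter window shaded, and colour for the deposited signal. Only ceh-20 and unc-62 pass a signal of 75; circles are summits with partners in both replicates and triangles those with 1 partner or none.

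The TALE genes encode the cofactors. The strongest summit of the whole set lay 727 bp upstream of ceh-20, which encodes a Pbx-like protein homologous to Extradenticle, at III:6979157 in intergenic sequence. Its pooled signal was 77.3 and its rank 829, 7 places beyond the end of the IDR-thresholded list, whose lowest signal was 77.4. The replicates differed in rank at this site: it was 12586 in replicate 1 (signal 17.9) and 429 in replicate 2 (signal 53.98). Replicate 1 therefore placed it beyond the middle of its list and replicate 2 near the top. With the 822 strongest peaks of replicate 2 alone, ceh-20 was the only gene of the set with a summit in its window.

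The unc-62 gene, which encodes a Meis-like protein homologous to Homothorax, carried the next strongest summit, 1842 bp downstream of its 5' end in an intron. Its pooled signal was 75.2 and its rank 888, 66 places beyond the IDR-thresholded list. Here the replicate ranks were closer, 751 in replicate 1 (signal 43.9) and 1924 in replicate 2 (signal 29.5). With the 822 strongest peaks of replicate 1 alone, unc-62 was the only gene of the set with a summit in its body.

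Summits ran along the whole unc-62 gene. The body, 13989 bp long, held 8 pooled summits, 8 of replicate 1 and 12 of replicate 2, and 6 of the 8 pooled summits had partners in both replicates. That is 57.2 pooled summits per 100 kb, where the median over the 998 protein-coding genes of at least 10 kb was 14.2. A rate as high or higher was found in 21 of those long genes (2.10%), unc-62 included. After the strongest came summits 4998 bp (signal 48.6, rank 2744), 9842 bp (42.8, rank 4170), 2081 bp (42.1, rank 4383), 8380 bp (41.9, rank 4461) and 13177 bp (38.3, rank 6067) downstream of the 5' end. A summit at 10491 bp had rank 1319 in replicate 2 and no partner in replicate 1. No pooled summit was found upstream in the unc-62 promoter window. The other TALE genes had none in either place, with ceh-40 showing a summit of replicate 2 alone (rank 12273, 54 bp upstream) and ceh-60 no summit in any list.

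**Figure D3:**
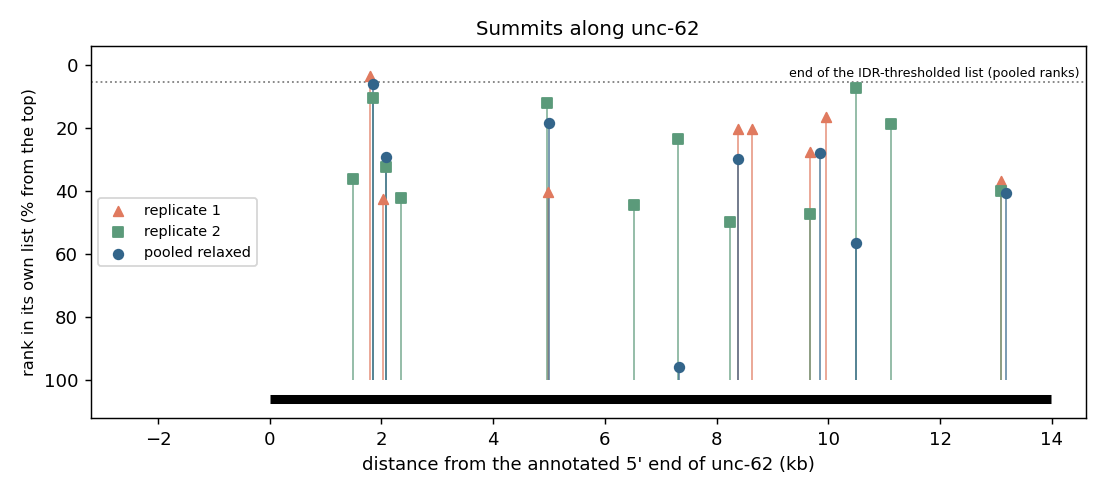
Summits along unc-62 by distance from its annotated 5' end (horizontal axis, kb), with the rank of each summit within its own list (vertical axis, % from the top, 0 the strongest) for both replicates and the pool, the gene body as a black bar, and the end of the IDR-thresholded list as a dotted line. The summit 1842 bp downstream is the highest pooled point, just below the line, which applies to pooled ranks, and others follow along the body.

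Of the 6 Hox genes, 4 had a pooled summit in the window or body (66.7%, background 39.9%), all at ranks of 4290 or weaker. Pooled summits lay in the bodies of 3, where their lengths and the share of each length class gave 2.45. Replicate 1 had summits in 5 of the 6 bodies (83.3%, background 35.8%) and replicate 2 in 2 (33.3%, background 32%). These backgrounds cover genes of all lengths, and 3 of the 6 Hox genes were in the longest length class. The strongest pooled summit was upstream of nob-1, an Abdominal-B-like gene needed for the posterior embryo. It lay 497 bp from the 5' end with a pooled signal of 42.4 (rank 4290), and a weaker one lay at 711 bp with a signal of 33.3 (rank 9482). The nearer summit had signal 16.4 and rank 15736 in replicate 1 and signal 25.4 and rank 3340 in replicate 2. The farther one had ranks 11659 and 5899, so both ranked higher in replicate 2. The nob-1 body held 4 summits of replicate 1, at ranks from 7331 to 17784, and none of replicate 2 or the pool. For mab-5, an Antennapedia-like gene that guides migration of neuroblasts, a summit 988 bp upstream, just inside the window, had pooled signal 36.1 (rank 7326). It had rank 16256 in replicate 1 and 9355 in replicate 2. A summit in a mab-5 intron had pooled rank 9879 and was matched in replicate 1 alone (rank 6331).

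For ceh-13, the labial homologue, the pooled summit lay in coding sequence 215 bp downstream of the 5' end, just outside the promoter window, with signal 33.5 and rank 9341 (ranks 18131 and 13488 in replicates 1 and 2). In php-3, the Abdominal-B-like neighbour of nob-1, an intronic summit had rank 9083 in the pool and 17224 in replicate 2. It had no partner in replicate 1, which had a separate php-3 summit 2684 bp downstream of the 5' end (rank 13350). For lin-39, which patterns the mid-body and the vulva, the window and body held a single summit of replicate 1 (rank 12763) and no pooled summit. The window and body of egl-5, which patterns the tail, held no summit of any list.

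The surroundings of the 3 Hox pairs were also examined, from 10000 bp before to 10000 bp after each pair on chromosome III. Pooled summits numbered 6 around ceh-13 and lin-39 (12.2 per 100 kb), 8 around mab-5 and egl-5 (13.3) and 6 around php-3 and nob-1 (19.9), where the whole chromosome had 20.2 per 100 kb. An IDR-thresholded summit lay near 1 of the pairs. It had signal 129 and rank 282 (ranks 296 and 311 in the replicates) and lay at III:7520841, 15791 bp downstream of the lin-39 5' end, inside cux-7, whose 5' end was the nearest. Between ceh-13 and lin-39, whose 5' ends are 19028 bp apart, a pooled summit 2351 bp upstream of ceh-13 had rank 5562 and rank 2299 in replicate 2, with no partner in replicate 1. Between mab-5 and egl-5 a summit 7879 bp upstream of egl-5 was matched in both replicates (pooled rank 5734, ranks 12630 and 5753), and one 4983 bp upstream of mab-5 in replicate 2 alone (rank 2661). Replicate 1 had 39.9 summits per 100 kb around php-3 and nob-1, against 27.5 on the whole chromosome, with 8 of the 12 unmatched in replicate 2. Around the other pairs it had 12.2 and 11.6, and replicate 2 had 12.2, 16.6 and 19.9 against 23.3. By pooled summits none of the 3 pairs exceeded the rate of the chromosome, and the single IDR-thresholded summit was at another gene.

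**Figure D4:**
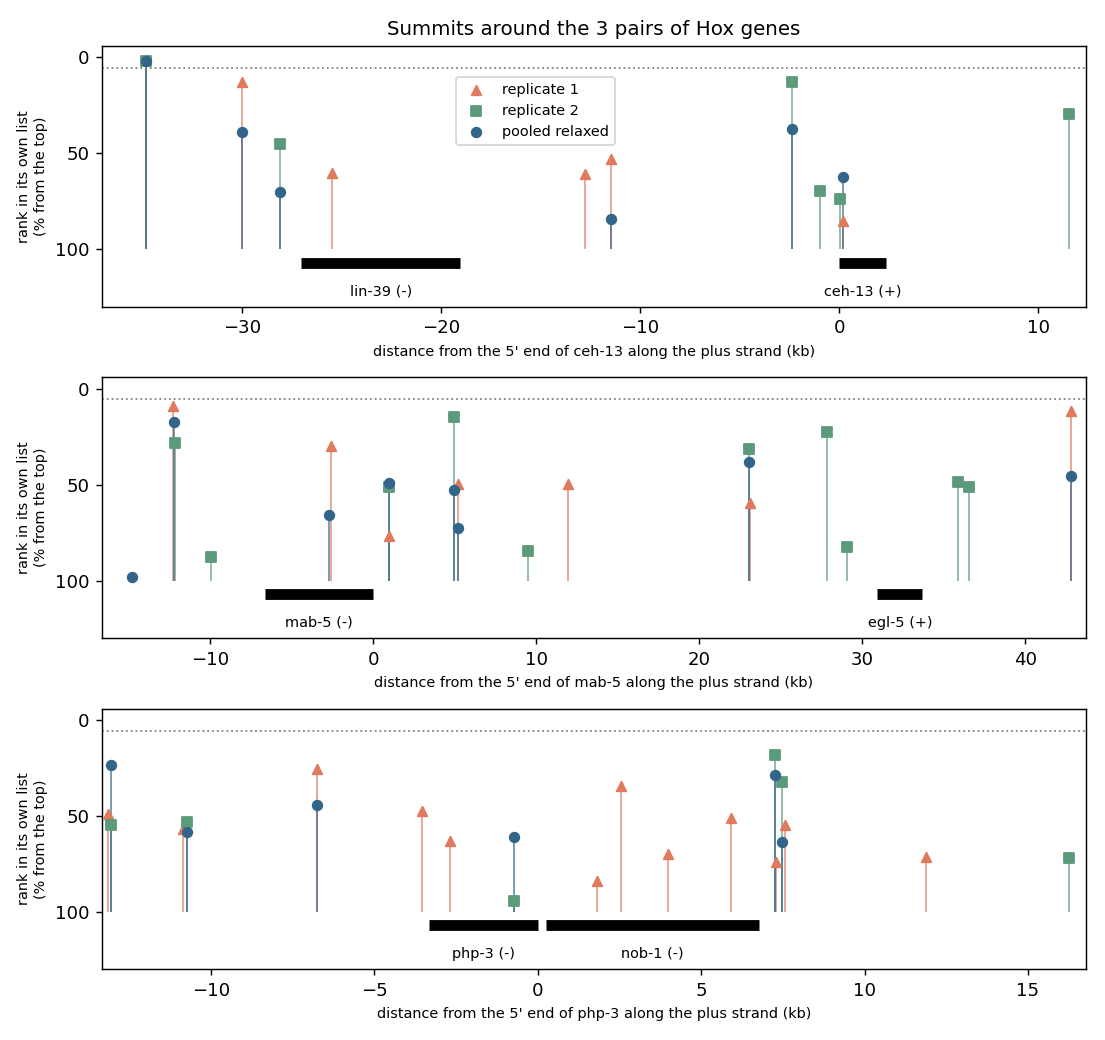
Summits from 10000 bp before to 10000 bp after each Hox pair, by distance from the 5' end of the first gene (horizontal axis, kb) and rank within the summit's own list (vertical axis, % from the top, 0 the strongest), with genes as black bars and the end of the IDR-thresholded list as a dotted line. The only pooled summit above the line is the one inside cux-7, 34819 bp from ceh-13.

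The Caudal and Even-skipped homologues had their pooled summits inside the gene. In pal-1, the Caudal homologue that specifies posterior blastomeres, an intronic summit 3963 bp downstream of the 5' end had pooled signal 46.3 and rank 3245. Its ranks in the replicates were fairly close, 4571 in replicate 1 (signal 24.3) and 3291 in replicate 2 (signal 25.5). The replicate 2 summit was 122 bp from the pooled one, and the nearest 5' end was that of metl-5, not of pal-1. A weaker intronic summit of pal-1, 2937 bp downstream, had pooled rank 11297 and a partner in replicate 2 alone (rank 5076). In vab-7, the Even-skipped homologue that patterns posterior cells, 3 intronic summits lay 1952, 2215 and 3166 bp downstream, with pooled ranks 4693, 9775 and 6169. The first had partners in both replicates (ranks 3689 and 15417), the second in replicate 2 alone (rank 1836) and the third in replicate 1 alone (rank 6420). Replicate 1 also had a vab-7 summit 811 bp upstream (rank 8541) with no partner in replicate 2 or the pool.

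Among the 17 NK-like and other Antennapedia-class genes 6 had a pooled summit in the window (35.3%, background 23.5%). In the body 2 had one (11.8%, background 26.4%), where their length classes gave 3.69. The strongest was upstream of ceh-51, which acts in mesoderm made by the MS blastomere, at 435 bp from the 5' end (pooled signal 53.7, rank 2027). The replicates gave it nearly the same rank, 2862 and 2863, with signals of 27.8 and 26.5. This summit was in an intron of emb-4, on the other strand, and in repeated sequence: 53 of the 72 runs of 30 bases within 50 bp of the summit occurred once in the genome, and the commonest run 53 times. How multiply mapped reads were handled is not stated in the labels or file notes. A further ceh-51 summit, 184 bp upstream, was matched in replicate 2 alone (rank 3090).

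For ceh-27, an NK-2-like gene, a summit lay 49 bp downstream of the 5' end (pooled signal 50.8, rank 2364, ranks 3503 and 10724 in the replicates) and a weaker one 2203 bp downstream (rank 9527). A summit 6 bp upstream of ceh-16, the Engrailed homologue of seam cells, had pooled signal 45.2 and rank 3501, and ranks 12127 and 6909 in the replicates. The remaining summits of this class were at ceh-43, the Distal-less homologue (pooled rank 7057), ceh-1 (7210), ceh-2 (10827) and ceh-19 (13765), and none of these 4 had partners in both replicates.

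Of the Cut and Onecut genes, ceh-38 had a summit 34 bp downstream of its 5' end with pooled signal 53.6 and rank 2035. It was another site that replicate 2 ranked far higher, with signal 20.2 and rank 8653 in replicate 1 and signal 35.4 and rank 1145 in replicate 2. Its sequence held a match to TGACAG, on the opposite strand. In ceh-39, a gene of the X chromosome that contributes to sex determination by X dosage, a summit with pooled rank 10201 lay 133 bp upstream of T26C11.9 and had rank 2545 in replicate 1 with no partner in replicate 2.

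Of the 3 genes of the sine oculis class, ceh-32, an Optix-like gene of the anterior head, had 2 summits. The one 308 bp upstream had pooled signal 49.1 and rank 2641, with ranks of 17612 in replicate 1 and 2962 in replicate 2. The one in an intron, 1261 bp downstream, had pooled signal 45.03 and rank 3554, and its ranks of 4673 and 5883 were closer together. The neighbours ceh-33 and ceh-34 had only unmatched summits of replicate 2.

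Of the 8 paired-like genes, 5 had a pooled summit in the body (background 26.4%), where their length classes gave 2.85, and for 2 of these the same summit was also in the window (background 23.5%). In ceh-8, a Rx-like gene on chromosome I, the summit was 5237 bp downstream of the 5' end, near the far end of the gene and 748 bp upstream of col-63, with pooled signal 51.5, rank 2277 and replicate ranks of 3729 and 4386. For ceh-54 a summit 142 bp downstream had pooled rank 5036 and replicate ranks of 20075 and 6649, and 54 of the 72 runs of 30 bases around it occurred once in the genome. The ceh-54 and ceh-51 sites were the only ones with repeated runs, since at the other 49 of the 51 summits every run of 30 bases was found once. The Goosecoid-like ceh-45 (139 bp downstream, pooled rank 7253), ceh-53 (10596) and the Otx-like ceh-37 (14438) had partners in a single replicate. The single LIM gene, ceh-14, had an exonic summit with pooled rank 8962, and the POU gene ceh-18 had 2 summits, at ranks 9452 and 10777, all matched in replicate 1 alone.

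Among the 22 genes given no class, 8 had a pooled summit in the window or body (36.4%, background 39.9%). The strongest were at ceh-88, 2136 bp downstream of its 5' end (pooled rank 5712) and 203 bp upstream of C49C3.6, and in coding sequence of ceh-91, 78 bp downstream (rank 8157). After these came ceh-100 (8752), ceh-81 (9306), ceh-92 (10034), ceh-58 (13878), ceh-86 (14429) and ceh-87 (14579). In ceh-81 the summit had rank 1488 in replicate 2 and no partner in replicate 1.

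**Figure D5:**
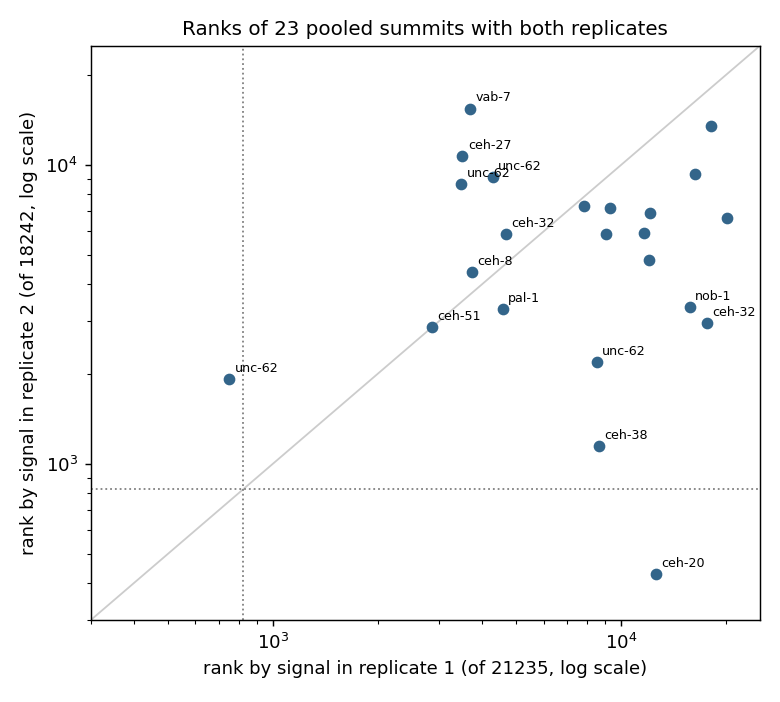
Rank in replicate 1 (horizontal axis, log scale) against rank in replicate 2 (vertical axis, log scale) for the 23 pooled summits with partners in both replicates, with dotted lines at rank 822 and the line of equal ranks in grey. Only ceh-20 (in replicate 2) and unc-62 (in replicate 1) pass a dotted line, and no summit passes both; ceh-51 lies on the line of equal ranks.

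A further 18 genes had a summit in a replicate list and none in the pool. The best rank among them was 5147, at ceh-93 in replicate 1, followed by 6397 at ceh-7 and 7068 at ceh-22, an NK-2-like gene of the pharynx, both in replicate 2. In 6 the summits were of replicate 1 alone, in 9 of replicate 2 alone, and in 3 of both at separate places. None of the 18 had matched summits in both replicates. Over all summits in the windows and bodies, 21 of 80 of replicate 1 (26.2%) had a replicate 2 summit within 200 bp, and for the whole list of replicate 1 the share was 31.1%. From replicate 2 it was 21 of 69 (30.4%), and 35.8% for its whole list. The other 20 genes, among them egl-5 and ceh-60, had no summit in any list, and their median length was 1900 bp (1899.5), against 3346 bp for the 51 genes with one.

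Motif shares at the summits of the set were set beside those over the pooled and IDR-thresholded lists. Within 50 bp of the summit TAAT, or ATTA on the other strand, was present at 21 of the 51 summits (41.2%, interval 28.8 to 54.8), 53.1% of all pooled summits and 32.5% of IDR-thresholded summits. AAAAAA was present at 27.5%, 35.6% and 22.3%, and GGGAA at 17.6%, 19.8% and 20.9%. TGACAG was present at 4 of 51 (7.84%, against 3.50% and 2.55%), TGATNNAT at 2 of 51 (3.92%, 5.42% and 2.92%), and GAGAGA at 7 of 51 (13.7%, 10.3% and 19.8%). The Wilson interval of the share in the set included the pooled share for all 6 motifs. It included the IDR-thresholded share for all but TGACAG (interval 3.09 to 18.5). The 4 summits with TGACAG include those 4998 and 2081 bp downstream in unc-62. The interval treats summits of the same gene as independent, which they need not be, so no conclusion is drawn from this exception. Matches to different motifs can overlap. The median GC content was 43.6% at the summits of the set, 40.6% over the pooled list and 49.5% over the IDR-thresholded list.

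The 3 lists of related genes, homeobox genes with other names, regulators of Hox expression and Hox targets, were counted in the same way. All 3 were written by hand with earlier results of these data known. Of 31 homeobox genes with other names, none had an IDR-thresholded summit, 8 had a pooled summit in the window (25.8%) and 18 in the body (58.1%), where all genes gave 23.5% and 26.4%. These genes were long, with 19 of the 31 in the longest length class, and the shares of the length classes gave 13.6 bodies with a pooled summit next to the 18 counted. The strongest of them were in the bodies of zag-1, a zinc-finger homeodomain gene of neurons (signal 52.4, rank 2173), pha-2 of the pharynx (50.8, rank 2357), the Meis-like psa-3 (47.0, rank 3078) and cog-1 (44.7, rank 3641). Matched summits of both replicates lay in the bodies of 9 (29%, background 12.3%) and in the windows of none (background 12.8%). That body background covers genes of all lengths, and no share by length class was worked out for matched summits. A count of 0 of 31 allows a share of up to 9.68%. That is above the IDR-thresholded backgrounds of 3.29% in windows and 1.17% in bodies, and below the 12.8% of matched summits in windows. The list was written with earlier results known, so no deficit is read from either count.

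Some genes that regulate Hox expression, Polycomb-like genes among them, had summits of higher rank than any Hox gene. A list of 10 such genes was written by hand with earlier results of these data known, so its shares are a description only. Of these 10, 6 had matched summits of both replicates in the promoter window (background 12.8%). An IDR-thresholded summit lay in the window of 3 (background 3.29%). Those 3 were sor-3 (280 bp upstream, signal 168, rank 148, beside a tRNA gene), spat-3, which encodes a RING-finger protein (572 bp upstream, signal 116, rank 343), and sor-1 (715 bp upstream, signal 114, rank 361). Their replicate ranks were 172 and 156, 362 and 363, and 291 and 455. For mes-2, which encodes an Enhancer of zeste homologue, the summit 162 bp upstream had rank 1146. For lin-59 and sop-2 the strongest window summits had ranks 1215 and 2669. The lin-59 summit had replicate ranks of 1699 and 2207, and this sop-2 summit had rank 17661 in replicate 1 and no partner in replicate 2. The remaining 4 of the 10 had no pooled summit in the window. The bodies of sor-1, sop-2 and lin-59 held one (30%, background 26.4%), at ranks of 4757, 5084 and 14332. Of the 10 genes, 8 were in the longest length class, and the shares of the length classes gave 5.03 bodies, above the 3 counted. Of 5 genes known as targets of Hox factors, 1 had a pooled summit in the window (20%, background 23.5%) and 3 in the body (60%, background 26.4%). The genes hlh-8 and eff-1 had none in either place. For mig-13, which acts in neuroblast migration, an IDR-thresholded peak had its summit 178 bp upstream (signal 95.0, rank 545, replicate ranks 770 and 603). It was the only target gene with an IDR-thresholded summit in the window (background 3.29%). The mig-13 body held a pooled summit at rank 830. That gene lies 5869 bp from ztf-16, the gene carried by the transgene, and whether the integrated construct adds copies of mig-13 was not tested. In egl-18, a GATA-factor gene, the strongest of 7 pooled summits in the body had rank 1578 (replicate ranks 5055 and 1533). In its neighbour elt-6 the strongest had rank 2627, but its replicate ranks of 18587 and 17376 were in the weaker part of both lists. All 5 target genes were in the longest length class, where 56.6% of genes had a pooled summit in the body.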

How the data were processed

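Peaks came from the deposited narrowPeak lists on ce11, per the file notes deposited with them, called by the authors against a control file. The signal value is the authors' deposited caller output, comparable only within its list. Aligner, caller, IDR threshold and handling of multiply mapped reads were not stated in the labels or file notes. The 822 IDR-thresholded peaks were the 822 strongest pooled peaks. The ce10 lists were not used.

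The gene annotation was Ensembl 115; its assembly, WBcel235, is ce11. Sequence was read from the RefSeq copy. Positions are 1-based. Replicate summits within 200 bp were called matched, and a small non-coding gene (tRNA, snoRNA, snRNA, rRNA or miRNA) within 200 bp was called beside a summit. Homeodomain classes and gene lists were written by hand. The genes and lists were chosen with earlier results of these data known. Genes were named by a rule: the Hox genes, pal-1, vab-7 and unc-62, the strongest summits in windows and bodies, the strongest 3 of each class and 4 of each related list. Other names, such as genes seen in 1 replicate list or near IDR-thresholded peaks, were chosen after their values were seen. The labels call the samples biological replicates. Python 3.11.15, numpy 2.4.6, pandas 2.3.3, scipy 1.17.1 and matplotlib 3.10.9 were used. On simulated data, all of 200 summits planted in promoter windows were recovered over 19973 genes.
The sequence at 1 summit is not reported here.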

Additional observations from a re-analysis of the deposited data

How the results depend on the processing

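No paired analysis was possible because the series has 1 group and no result comes from a test. The counts of genes with an IDR-thresholded summit stayed at 0 in windows and bodies in every alternative tried except those that used a single replicate: without replicate 1 the window count was 1 (ceh-20), without replicate 2 the body count was 1 (unc-62), and the range over both was 0 to 1. The pooled window count was 18, and 11 with windows of 500 bp upstream (background 17.2%) or with the stronger 50% of the list by signal (background 15.2%). The pooled body count was 23, and 11 with the stronger 50% (background 14%). With 1 replicate list cut to the pooled length in place of the pooled list, the leave-one-out ranges were 15 to 19 in windows and 22 to 27 in bodies. Matched summits of both replicates fell from 8 genes to 5 in windows of 500 bp (background 9.35%). In bodies they fell from 8 to 5 when the body began 200 bp downstream of the 5' end (background 11.2%) and when the replicate lists were cut to the pooled length (background 9.10%). These settings keep less sequence or fewer peaks by construction. The other alternatives, with windows of 2000 bp, any transcript's 5' end, the nearest 5' end, overlap of the whole peak and no peaks near small non-coding genes among them, stayed within 1.5 times of each count. Depth is unknown, and 71 genes could not show a deficit of IDR-thresholded summits.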
